A study of Mus musculus with 6 samples.

Results

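The cytosolic heat shock protein genes described here are 10 chaperone and co-chaperone genes, chosen by symbol from the 16095 genes of the deposited table: Hspa8, Hspa1a, Hspa1b and Hsph1 of the Hsp70 and Hsp110 families, Hsp90aa1 and Hsp90ab1 of the Hsp90 family, the J-domain genes Dnaja1 and Dnajb1, the small heat shock gene Hspb1 and the co-chaperone gene Bag3. All 10 were found and all 10 reached the mean of 10 normalized counts needed to be tested. RNA was sequenced from sorted mouse kidney epithelial cells in 6 libraries, 3 labelled control (Trf1+/+) and 3 labelled Terf1FLOX (Trf1 flox/flox, here Terf1_flox), Trf1 being the protein name of the gene Terf1. Every mouse, controls included, carried the KFP reporter and CreERT2, a tamoxifen-activated recombinase under the promoter of Cdh16, the Ksp-cadherin gene, and every mouse was given tamoxifen by intraperitoneal injection 3 times a week for 8 weeks, starting at 6 to 8 weeks of age, males and females together. Cells were released from the kidney with collagenase and dispase at body temperature and sorted on EpCAM antibody and the reporter signal. The promoter confines the recombinase to tubular epithelium that expresses Ksp-cadherin. The labels do not say how many mice went into each library; n therefore counts libraries, and the p-values measure only the spread between them.

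Heat shock proteins help other proteins to fold, keep damaged ones from clumping and hand them on for repair or removal. Hsp70 proteins work in cycles of ATP hydrolysis that J-domain proteins start and nucleotide exchange factors end; Hsp90 proteins take over clients such as kinases and steroid receptors from Hsp70 with the help of co-chaperones. Each family holds constitutive genes, here Hspa8 and Hsp90ab1, that are active in unstressed cells, and inducible genes, here Hspa1a, Hspa1b and to a lesser degree Hsp90aa1, that the transcription factor HSF1 switches on under heat, oxidative stress or misfolded protein. In the kidney, inducible Hsp70 and Hsp27, the product of Hspb1, are known from ischaemic injury and from cells of the salty inner medulla. Enzymatic digestion of a tissue is also known to induce heat shock and immediate early genes.

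The libraries held between 13582140 and 17680986 reads over the deposited genes. Terf1 itself had 529.6, 486 and 664 normalized counts in the controls and 62.0, 24.6 and 25.3 in the Terf1_flox libraries, so the labels and the targeted gene pointed the same way. Its log2 fold change was −3.99 ± 0.61 (SE; limma adjusted p = 0.0814; exact two-sided permutation p = 0.1, the lowest value possible with 3 libraries a group). The epithelial genes Epcam and Cdh16 were present in every library, at 1434 to 5087 and 4063 to 7152 normalized counts. Of the 8 endothelial and 5 podocyte markers 0 were among the deposited genes. Of 8 fibroblast markers 1 was among them, with at most 15.2 normalized counts in any library. Of 8 macrophage markers 2 were, and they summed to at most 110.3. Erythroid markers summed to 190 to 746 per control library and 151 to 554 per Terf1_flox library, with all 4 measured ones below 0 on the log2 scale, and proximal tubule markers to 1228 to 1561 and 900 to 3359. The mitochondrially encoded share of reads was higher in every Terf1_flox library (16.2% to 20.6%) than in any control library (10.3% to 13.0%). Epcam, on which the cells were sorted, averaged 4671 ± 363 and 2081 ± 802 normalized counts (SD, n = 3 each; log2 fold change −1.23 ± 0.29, limma adjusted p = 0.139, DESeq2 adjusted p = 0.00748). The 6 thick ascending limb markers summed to 218341 to 261900 normalized counts per control library and 186292 to 197881 per Terf1_flox library, with 4 of the 6 above 0 on the log2 scale, 2 below and a median of 0.11. All 6 intercalated cell markers were below 0, with a median of −1.33, and summed to 8811 to 20196 per control library and 6010 to 11420 per Terf1_flox library. Distal convoluted and connecting tubule markers summed to 136160, 138287 and 67945 in the controls and 121770, 127389 and 72235 in the Terf1_flox libraries. Of 5 principal cell markers 1 was above and 4 below 0 (median −1.01), with sums of 587 to 1843 per control library and 340 to 1654 per Terf1_flox library. The part of these differences in the heat shock gene values was not tested.

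HSF1 binds DNA as a trimer at heat shock elements, repeats of GAA and its complement TTC at a fixed spacing. The promoter sequences of 7 of the 10 genes could be matched in RefSeq on build GRCm38.p6 and were searched, over the 250 bases before each annotated start, for GAANNTTC or TTCNNGAA, each of which reads the same on both strands. At least 1 such motif was found for 5 of the 7, against 14.5% of the 27025 genes with a promoter in that table. The 5 count Hspa1a and Hspa1b separately. The promoters of Hspa8, Hsp90aa1 and Hsp90ab1 were not matched and not searched, so the count does not cover them. The matching stretches are shown 5′ to 3′ on the gene's strand, with the motif in capitals, because they show which of the 7 searched members hold these letters before a start. The authors' build was GRCm39, so these coordinates belong to the reference only.
Hspa1a, chr17:34972229-34972290, minus strand: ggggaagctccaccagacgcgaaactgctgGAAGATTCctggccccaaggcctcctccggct
Hspa1b, chr17:34959311-34959372, minus strand: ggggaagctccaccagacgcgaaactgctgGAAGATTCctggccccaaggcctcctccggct
Hspb1, chr5:135887772-135887853, plus strand: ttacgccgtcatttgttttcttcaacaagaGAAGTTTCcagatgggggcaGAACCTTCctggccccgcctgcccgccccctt
Hsph1, chr5:149636338-149636399, minus strand: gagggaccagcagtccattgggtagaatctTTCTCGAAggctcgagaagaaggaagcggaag
Dnaja1, chr4:40722314-40722375, plus strand: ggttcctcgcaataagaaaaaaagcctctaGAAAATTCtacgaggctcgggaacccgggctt

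Hspa1a and Hspa1b are neighbouring copies with the same stretch around the motif, which starts 104 bases before the start of each gene, and their 250 upstream bases differed at 3 positions. Hspb1 held 2 motifs, starting 117 and 97 bases before its start. Of the 3 annotated starts of Dnaja1, 1 had a match. Bag3 and Dnajb1 had no match in the 250 bases before their starts; Bag3 had 1 in the 50 bases after. A match is a description of these letters, not of binding.

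Several members share sequence with other genes, which limits how surely a read can be placed. Of all stretches of 50 bases in the main transcript, 62.3% of those of Hspa1b also occur in Hspa1a, and 58.8% of those of Hspa1a occur in Hspa1b. Hspa8 shared 73.2% of its stretches with other annotated genes, mostly pseudogene copies, Hsp90aa1 65.6%, Hspb1 58.9% and Dnaja1 30.6%. Hsp90ab1 shared 4.49%, Dnajb1 0.407%, and Bag3 and Hsph1 shared 0. The pseudogene Gm12346, which holds 57.5% of the stretches of Hsp90aa1, had between 30.8 and 153 normalized counts, 0.651% to 2.81% of the value of Hsp90aa1 in the same library. The sources used here do not say how the authors' counting treated such reads, so the values of Hspa1a, Hspa1b, Hspa8, Hsp90aa1, Hspb1 and Dnaja1 are uncertain in this respect, and the first 2 are also given as a sum.

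Per kilobase of transcript, the constitutive genes had the highest means in control cells and the inducible Hsp90 gene had the highest mean in Terf1_flox cells. The order of the genes also depends on how reads of shared sequence were counted, which is not known. In control libraries Hsp90ab1 stood at 3664 ± 1254 normalized counts per kilobase, Hspa8 at 3244 ± 1160 and Hsp90aa1 at 1700 ± 206 (SD, n = 3). The first 2 overlapped between libraries, and both lay above every value of Hsp90aa1. In Terf1_flox libraries the order was Hsp90aa1 at 1862 ± 62.1, Hspa8 at 1602 ± 492 and Hsp90ab1 at 1408 ± 63.2 normalized counts per kilobase. There Hspa8 overlapped both of its neighbours. Dnaja1, the J-domain partner of Hsp70 that is also farnesylated, came next in both groups, at 392 ± 19.6 and 464 ± 147. The other 6 genes were lower, from 39.5 ± 33.8 (Hspa1b) to 237 ± 117 (Hsph1) in the controls and from 39.9 ± 20.7 (Bag3) to 209 ± 120 (Hspb1) in the Terf1_flox libraries, and each overlapped its neighbour in that order in both groups. The counted values of inducible Hsp70 were low in every library. Per kilobase the highest value of Hspa1a was 109 and of Hspa1b 109.8 normalized counts, against a lowest value of 1048 for Hspa8. As all 3 genes share sequence with other genes or copies, their true levels may differ from these counted values.

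**Figure D1:**
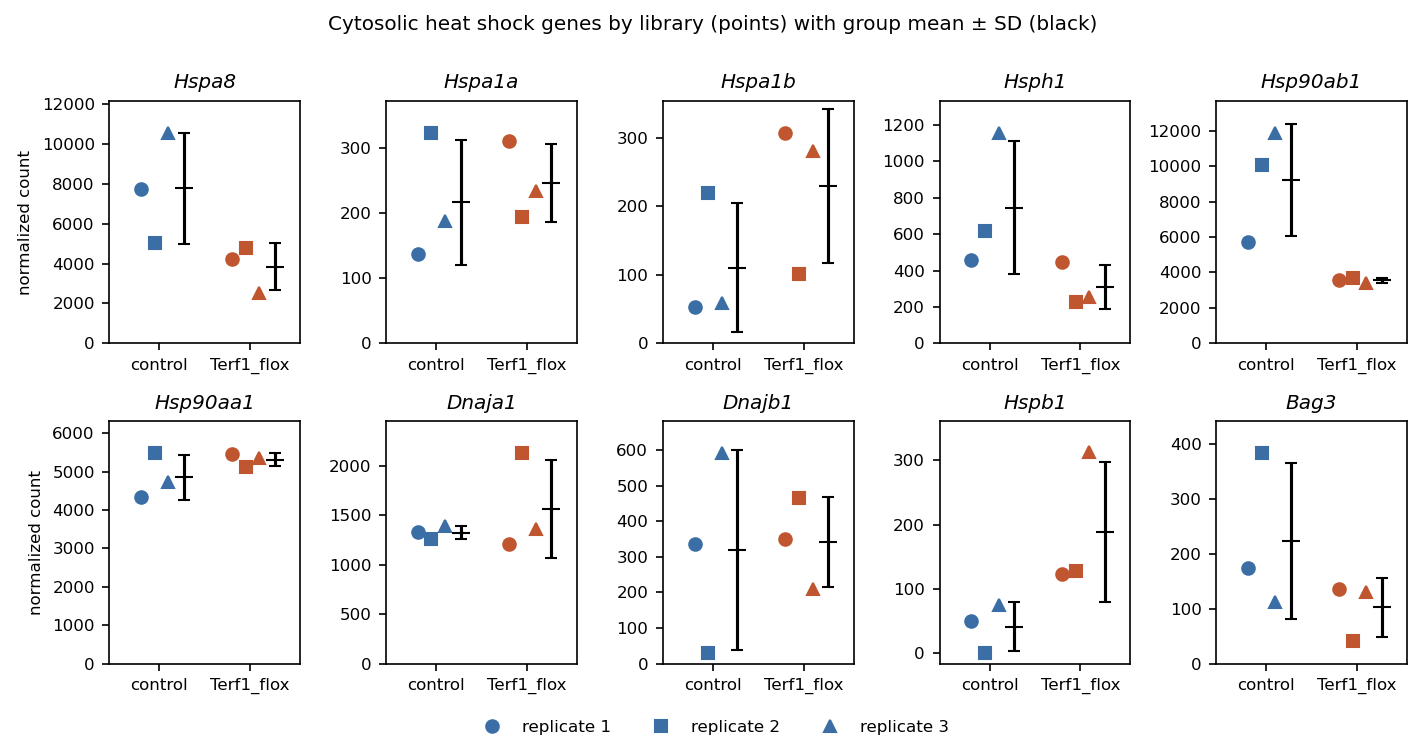
Normalized counts (vertical axis, linear, not divided by gene length) of each heat shock gene in the 3 control (blue) and 3 Terf1_flox (orange) libraries, with replicates as marker shapes and the group mean ± SD in black. Hsp90ab1, Hspa8 and Hsph1 were lower in every Terf1_flox library than in any control library and Hspb1 was higher; the other 6 genes overlapped.

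The comparison of Terf1_flox with control libraries asks how the chaperone genes of renal epithelium differ when Terf1 has been deleted. The differences went both ways: Hsp90ab1, Hspa8 and Hsph1 were lower by a factor of 2.01 to 2.49, and Hspb1 was higher. Hsp90aa1 and Dnaja1 had the log2 fold changes nearest to 0, at 0.14 (95% interval −0.28 to 0.56) and 0.20 (−0.47 to 0.87). Of the 10 genes, 6 had a log2 fold change above 0 and 4 below, with a median of 0.17, beside a median of −0.08 and 47.2% above 0 over all 14822 genes tested. With limma, 0 of the 10 passed at an adjusted p below 0.05 over all genes, where 0% of all genes did; their adjusted p ran from 0.117 to 0.865. At an unadjusted limma p below 0.05 there were 3 of 10, all lower, against 14.1% of all genes in either direction and 8.43% for lower alone. The groups did not overlap for 4 of 10 genes, against 21.1% of all genes. DESeq2 on the recovered reads called 2 of 10, Hsp90ab1 and Hspa8, both lower, against 5.81% of the genes to which it gave an adjusted p and 3.34% for lower alone; edgeR called 0 of 10, with 0% of all genes called and 13.4% at an unadjusted p below 0.05. In sorted cells measured in bulk, fewer cells of a type and less RNA per cell cannot be told apart.

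**Figure D2:**
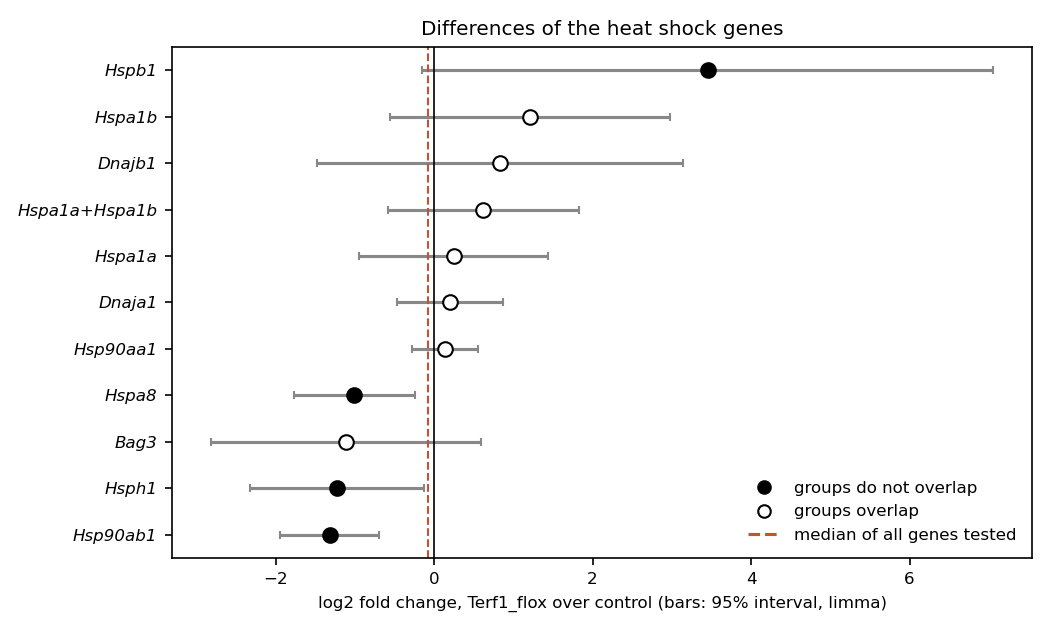
Log2 fold change of each heat shock gene, Terf1_flox over control (horizontal axis), with its 95% interval from limma; filled points mark genes whose groups did not overlap and the dashed line is the median of all genes tested. The intervals of Hsp90ab1, Hspa8 and Hsph1 lie below 0, and the interval of Hspb1 is the widest, from −0.15 to 7.05.

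Hsp90ab1, the constitutive Hsp90 gene, had the lowest limma adjusted p of the 10 genes. It had 5739, 10066 and 11893 normalized counts in the controls and 3573, 3695 and 3379 in the Terf1_flox libraries. The highest Terf1_flox library lay well under the lowest control library, and the 3 Terf1_flox libraries lay close together while the controls spread over a factor of 2. The log2 fold change was −1.31 ± 0.27 (SE; 95% interval −1.94 to −0.69), which is 2.49-fold lower. The limma adjusted p was 0.117 over all genes and 0.0415 among genes with a mean of at least 50, where 1.23% of genes were called; the DESeq2 adjusted p was 0.000236.

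Hsp90aa1, the inducible Hsp90 gene, had 4327, 5486 and 4729 normalized counts in the controls and 5464, 5116 and 5348 in the Terf1_flox libraries. These values overlapped fully, and the highest of the 6 belonged to a control library. The log2 fold change was 0.14 ± 0.18 with a 95% interval of −0.28 to 0.56 (limma adjusted p = 0.784), and it was −0.04 with equal library totals. The interval leaves room for a log2 fold change down to −0.28 or up to 0.56, but not for one as large as that of Hsp90ab1.

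Within each library, the balance of the Hsp90 genes therefore differed between groups. Hsp90ab1 had 1.33, 1.83 and 2.51 times the normalized count of Hsp90aa1 in the controls and 0.654, 0.722 and 0.632 times in the Terf1_flox libraries, and per kilobase 1.501, 2.08 and 2.85 against 0.740, 0.817 and 0.715 times. Each control library was above 1 and each Terf1_flox library below it, on both scales. Where a ratio lies relative to 1 also depends on how reads of shared sequence were counted, which is not known. Of the stretches of 50 bases, 65.6% of those of Hsp90aa1 and 4.49% of those of Hsp90ab1 also occur in other genes. A ratio within a library is not changed by how libraries are scaled. The log2 ratio was 0.87 ± 0.46 in the controls and −0.58 ± 0.10 in the others (SD, n = 3 each), a difference of −1.45 or 2.74-fold, with an exact two-sided permutation p of 0.1, the smallest possible. This ratio was chosen after the values were seen. After correction of all genes for transcript GC content and length, the difference was −0.93. The sum of both Hsp90 genes was 10066, 15552 and 16622 normalized counts in the controls and 9037, 8811 and 8728 in the Terf1_flox libraries, again without overlap.

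**Figure D3:**
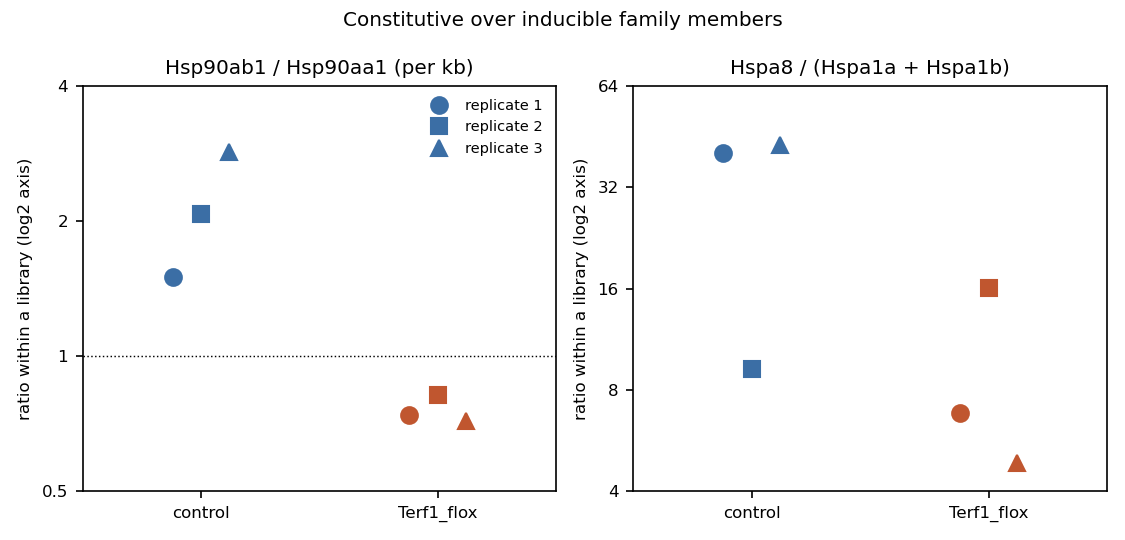
Ratio within each library (vertical axis, log2 scale) of Hsp90ab1 to Hsp90aa1 per kilobase, left, and of Hspa8 to the sum of Hspa1a and Hspa1b in normalized counts, right; marker shapes are replicates and the dotted line marks a ratio of 1. On the left the control libraries lie between 1.501 and 2.85 and the Terf1_flox libraries between 0.715 and 0.817. The position relative to 1 also depends on how reads of shared sequence were counted, which is not known. On the right the groups overlap.

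Hspa8, the constitutive Hsp70 that also uncoats clathrin vesicles, had 7733, 5006 and 10561 normalized counts in the controls and 4237, 4758 and 2509 in the Terf1_flox libraries. The groups did not overlap, but the lowest control library and the highest Terf1_flox library were close. The log2 fold change was −1.005 ± 0.33 (95% interval −1.76 to −0.25; limma adjusted p = 0.239), 2.01-fold lower, and the DESeq2 adjusted p was 0.0418. It was −0.72 without Terf1_flox replicate 3 and −0.67 after the GC content and length correction.

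The inducible copies showed no such decrease. Hspa1a had 138, 324 and 188 normalized counts in the controls and 311, 194 and 235 in the Terf1_flox libraries, and Hspa1b had 53.7, 220 and 58.4 in the controls and 308, 102 and 281 in the Terf1_flox libraries. In both genes control replicate 2 stood well above the other controls and Terf1_flox replicate 2 was the lowest of its group. Summed, the copies had 192, 544 and 246 normalized counts in the controls and 619, 296 and 516 in the Terf1_flox libraries. The log2 fold change of the sum was 0.62 ± 0.53 (95% interval −0.58 to 1.83; limma adjusted p = 0.644). It was 0.31 without control replicate 1, 0.40 without Terf1_flox replicate 1, 0.93 without Terf1_flox replicate 2 and 1.06 without control replicate 2. Taken apart, Hspa1a was at 0.25 ± 0.52 and Hspa1b at 1.21 ± 0.78; neither passed in limma. Hspa1b was at 1.87 without control replicate 2 and 0.86 without control replicate 1. The share of Hspa1a in the sum ran from 45.5% to 76.3%. Since the copies share most of their sequence, that share depends on how reads were placed.

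Hspa8 had 40.3, 9.20 and 42.9 times the normalized count of the summed inducible copies in the controls and 6.85, 16.1 and 4.86 times in the Terf1_flox libraries. The groups overlapped through control replicate 2 (exact two-sided permutation p = 0.2). The difference in log2 ratio was −1.63 with all libraries. With 1 library left out it ran from −2.35, without control replicate 2, to −1.24. Like the ratio of the Hsp90 genes, this one was chosen after the values were seen.

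Hsph1 codes for Hsp110, a large relative of Hsp70 that acts as its nucleotide exchange factor. It had 459, 619 and 1159 normalized counts in the controls and 448, 227 and 252 in the Terf1_flox libraries. The groups were separated by a narrow margin, between control replicate 1 and Terf1_flox replicate 1. On the log2 scale the difference was −1.23 ± 0.48 (95% interval −2.32 to −0.13), with an adjusted p of 0.304 by limma and 0.134 by DESeq2. It kept its sign in all 18 alternatives and ran from −1.53 to −0.85 when 1 library was left out.

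Of the J-domain genes, Dnaja1 had 1328, 1254 and 1386 normalized counts in the controls and 1205, 2130 and 1361 in the Terf1_flox libraries. Only Terf1_flox replicate 2 stood apart, and without it the log2 fold change was −0.05, against 0.20 ± 0.29 with all libraries (95% interval −0.47 to 0.87; limma adjusted p = 0.805). Dnajb1, which codes for the Hsp40 that works with inducible Hsp70 and binds HSF1, had 336, 29.5 and 592 normalized counts in the controls and 349, 465 and 210 in the Terf1_flox libraries. Control replicate 2 held 31 reads of Dnajb1, where the other 5 libraries held 208 to 750. That library set the sign: the log2 fold change was 0.83 ± 1.02 (limma adjusted p = 0.76) and −0.46 without it.

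Hspb1, the small heat shock gene that codes for Hsp27 (Hsp25 in the mouse), had 50.1, 0 and 75.0 normalized counts in the controls and 124, 128 and 314 in the Terf1_flox libraries. Every Terf1_flox library was above every control library. Control replicate 2 had no read of it, which allows up to 3 reads or 2.86 normalized counts there, counting error alone considered. Group means were 41.7 ± 38.2 and 189 ± 108 (SD, n = 3 each), a 4.52-fold difference of means. On the log2 scale with a pseudocount of 1 the difference was 3.45 ± 1.58, with an adjusted p of 0.371 by limma and 0.362 by DESeq2; it was 2.65 with a pseudocount of 5 and 1.46 without control replicate 2.

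Bag3, the exchange factor that links Hsp70 to small heat shock proteins and to selective autophagy, had 174, 383 and 111 normalized counts in the controls and 136, 41.1 and 130 in the Terf1_flox libraries. The groups overlapped, and the highest value of all was again in control replicate 2, the library with no Hspb1 and the least Dnajb1. The log2 fold change was −1.11 ± 0.75 (95% interval −2.81 to 0.59; limma adjusted p = 0.546), −0.63 without control replicate 2 and −0.55 without Terf1_flox replicate 2.

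**Figure D4:**
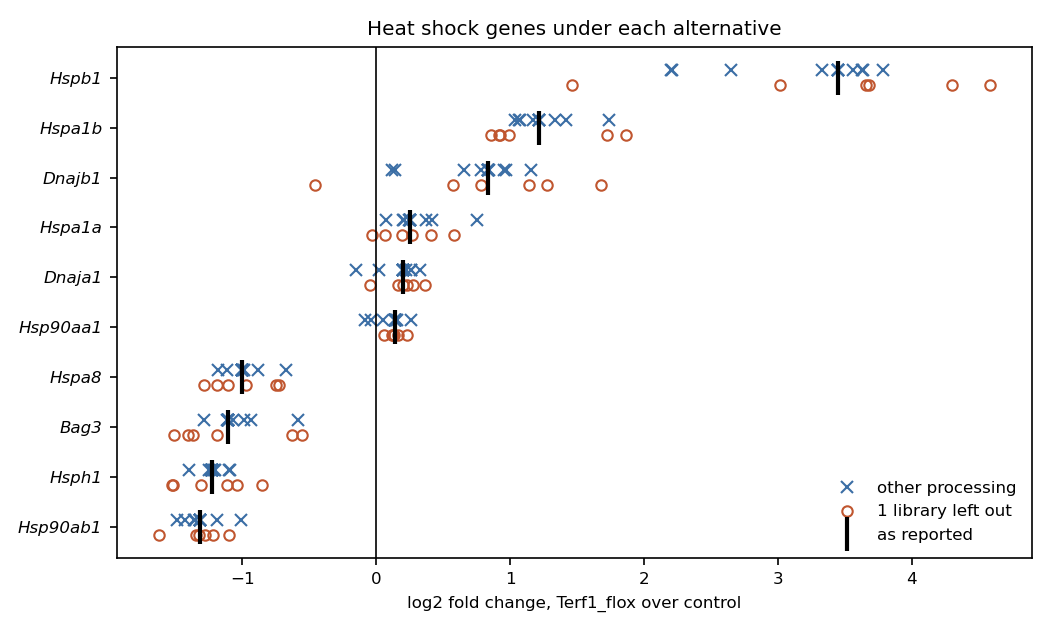
Log2 fold change of each heat shock gene, Terf1_flox over control (horizontal axis), as reported (black bars), with other processing (crosses) and with 1 library left out (open circles). Hsp90ab1, Hsph1, Bag3 and Hspa8 stay below 0 and Hspb1 and Hspa1b above 0 throughout, while Dnajb1, Hspa1a, Dnaja1 and Hsp90aa1 cross 0 in at least 1 alternative.

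The members varied to very different degrees over the 6 libraries. Hsp90aa1 spanned a factor of 1.27, a log2 range of 0.34 beside a median of 1.09 for the 577 genes with a mean between 0.5 and 2 times its own; 1.21% of those genes had a smaller range. Dnaja1 spanned a factor of 1.77, and 14.96% of its 2045 like-level genes had a smaller range. For Hspa1a that share was 8.999%. At the other end, Dnajb1 spanned a factor of 20.0 and Bag3 9.33, and 90.1% and 58.6% of genes of like level had a smaller range. Hspb1 had a larger range than 98.1% of its like-level genes, on the scale of log2 of the normalized count plus 1. The groups of Hspa8 (94.9%), Hsp90ab1 (90.0%), Hsph1 (71.9%) and Hspb1 did not overlap, so their ranges include the difference between groups. The low end of the Hspb1 range is control replicate 2, which had 0 reads of it.

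All 10 genes together took 0.144%, 0.181% and 0.220% of reads in the controls and 0.107%, 0.107% and 0.0908% in the Terf1_flox libraries, without overlap. Hspa8, Hsp90aa1 and Hsp90ab1 made up between 80.1% and 88.4% of the members' summed normalized counts, so this share mainly follows those 3 genes.

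Beyond the 10 genes, the wider chaperone network was followed through lists of 74 further genes, of which 66 were tested: 26 had a log2 fold change above 0 and 40 below, with a median of −0.40 beside −0.08 over all genes. With limma and edgeR 0 of them passed over all genes; among genes with a mean of at least 50, where limma called 1.23%, Fkbp4 (adjusted p = 0.0272), Hspd1 (0.0418) and Nudc (0.0432) passed, all lower. DESeq2 called 3 higher and 8 lower, beside 2.47% and 3.34% of all genes; at an unadjusted limma p below 0.05 there were 4 higher and 13 lower, beside 5.70% and 8.43%. The groups did not overlap for 6 genes that were higher and 17 that were lower, beside 10.3% and 10.8% of all genes.

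Among 15 Hsp90 co-chaperone genes, the log2 fold change was positive for 5 and negative for 10, and its median was −0.72; DESeq2 called 1 higher and 2 lower. Over all genes tested, 47.2% were above 0, and DESeq2 called 2.47% higher and 3.34% lower. Fkbp4, the immunophilin FKBP52 that joins Hsp90 to steroid receptors, had 1427, 2250 and 2498 normalized counts in the controls and 364, 681 and 370 in the Terf1_flox libraries (log2 fold change −2.15 ± 0.38, limma adjusted p = 0.0881, DESeq2 adjusted p = 1.06e-05). Nudc, a co-chaperone that also serves dynein, had 1160, 1169 and 1857 against 137, 198 and 550 normalized counts (−2.46 ± 0.54, limma adjusted p = 0.126, DESeq2 adjusted p = 0.00139). Ptges3, which codes for the Hsp90 co-chaperone p23, went the other way, from 2834, 2836 and 4297 to 5553, 5796 and 6982 normalized counts (0.90 ± 0.23, limma adjusted p = 0.163, DESeq2 adjusted p = 0.0165). The groups did not overlap for these 3 genes, which were named for their small p. Over the 15 genes this held for 1 higher and 4 lower, beside 10.3% and 10.8% of all genes. After the GC content and length correction Fkbp4 was at −1.59, Nudc at −1.99 and Ptges3 at 0.82. Their limma adjusted p were then 0.224, 0.266 and 0.267.

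The Hsp70 co-chaperones were 3 above and 5 below 0 of 8. Hspbp1, an exchange factor and inhibitor of Hsp70, had 558, 760 and 448 normalized counts in the controls and 131, 102 and 95.1 in the Terf1_flox libraries (−2.40 ± 0.46, limma adjusted p = 0.0981, DESeq2 adjusted p = 0.000163). Bag1, which brings Hsp70 to the proteasome, averaged 3948 ± 821 and 2024 ± 323 (−0.95 ± 0.25, DESeq2 adjusted p = 0.0176). Of 15 other J-domain genes 5 were above and 10 below 0. DESeq2 called 1 of them, Dnajc7, lower (−1.28 ± 0.45, DESeq2 adjusted p = 0.0361), beside 3.34% of all genes. Dnajc7 hands clients between Hsp70 and Hsp90, and its log2 fold change was −0.84 without control replicate 3.

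Of 9 other Hsp70 and Hsp110 genes 4 had a positive log2 fold change and 5 a negative one (median −0.32). DESeq2 called 0 higher and 2 lower, both Hsp70s of other compartments, beside 2.47% and 3.34% of all genes. Hspa5, the Hsp70 of the endoplasmic reticulum, had 9840, 5093 and 9750 normalized counts in the controls and 4274, 4576 and 2632 in the Terf1_flox libraries (−1.08 ± 0.32, limma adjusted p = 0.202, DESeq2 adjusted p = 0.0188). The mitochondrial Hsp70 gene Hspa9 had 3828, 4067 and 5926 normalized counts in the controls and 2645, 2629 and 2624 in the Terf1_flox libraries (−0.78 ± 0.23, limma adjusted p = 0.202, DESeq2 adjusted p = 0.0414). Both Hsp90 genes of other compartments were below 0. Hsp90b1, the Hsp90 of the endoplasmic reticulum, averaged 7685 ± 1778 and 4536 ± 824 (−0.75 ± 0.24, limma adjusted p = 0.227, DESeq2 adjusted p = 0.0659). Its groups did not overlap.

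Among 5 other small heat shock genes 4 had a positive log2 fold change and 1 a negative one (median 1.11). DESeq2 called 1 higher, beside 2.47% of all genes. Hspb11, which also codes for the ciliary transport protein IFT25, had 518, 432 and 358 normalized counts in the controls and 1087, 1090 and 880 in the Terf1_flox libraries (1.23 ± 0.33, limma adjusted p = 0.177, DESeq2 adjusted p = 0.0188). Its groups did not overlap, and it was at 0.38 after the GC content and length correction.

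Other genes known to be induced by heat shock went both ways: 6 of 18 were above and 12 below 0. Hspd1 and Hspe1 code for the mitochondrial chaperonin and its lid and are known to share a promoter. Their log2 fold changes were −2.03 ± 0.45 (DESeq2 adjusted p = 0.000163) and 0.61 ± 0.18 (DESeq2 adjusted p = 0.0575). The groups did not overlap for either. Over the 18 genes this held for 2 higher and 4 lower, beside 10.3% and 10.8% of all genes. Ier5, an immediate early gene whose product can bind HSF1, had 0.88, 20.0 and 0.789 normalized counts in the controls and 313, 115 and 158 in the Terf1_flox libraries (limma adjusted p = 0.134; DESeq2 adjusted p = 0.00387). It is the network gene with the largest log2 fold change among those named here, 5.44 ± 1.25, a value that rests on single reads in 2 control libraries.

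**Figure D5:**
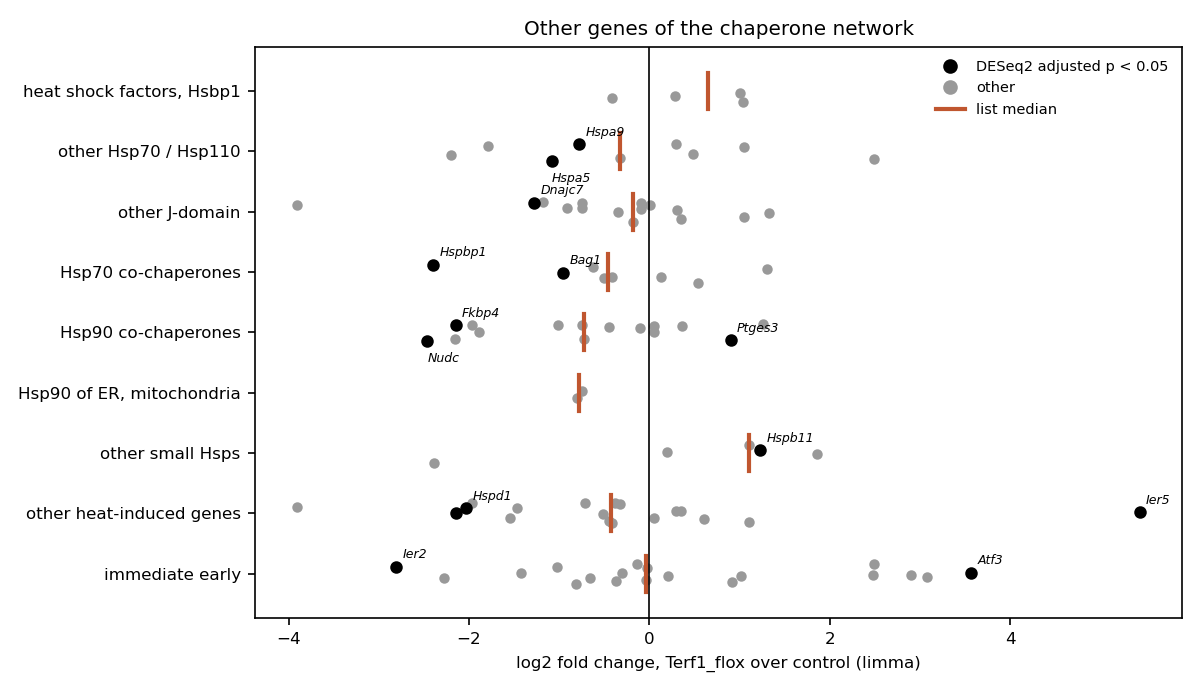
Log2 fold change, Terf1_flox over control (horizontal axis, limma), of the tested genes in each list of the chaperone network; black points with names passed in DESeq2 (Fkbp4 is in 2 lists and named once), grey points did not, and orange bars are list medians. The medians of the Hsp70 and Hsp90 co-chaperones lie at −0.46 and −0.72, and Ier5 is the point farthest to the right.

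The heat shock factors themselves did not pass in limma, edgeR or DESeq2. Hsf1 had 289, 118 and 171 normalized counts in the controls and 166, 112 and 133 in the Terf1_flox libraries (−0.41 ± 0.58, limma adjusted p = 0.795), and Hsf2 124, 178 and 27.6 against 206, 75.9 and 327 (1.01 ± 0.89, limma adjusted p = 0.66). Both overlapped between groups. Hsf1 was at 0.20 after the GC content and length correction, −0.71 without control replicate 2, −0.27 without Terf1_flox replicate 2 and −0.071 without control replicate 1. Hsf2 was at 0.21 without control replicate 3, 0.55 without Terf1_flox replicate 3, 1.53 without control replicate 2 and 1.59 without Terf1_flox replicate 2.

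Immediate early genes, the other mark of tissue digestion, were given beside the heat shock genes in the same libraries. Their 19 measured members summed to 6169 to 6999 normalized counts per control library and 5615 to 6413 per Terf1_flox library, with 8 above and 11 below 0 and a median log2 fold change of −0.03. DESeq2 called 1 of them lower and 1 higher, beside 3.34% and 2.47% of all genes. Ier2, called lower, had 356, 301 and 302 normalized counts in the controls and 58.7, 27.7 and 54.6 in the Terf1_flox libraries (DESeq2 adjusted p = 0.00178). Atf3, called higher, had 1.76, 0.953 and 0 against 16.3, 172 and 2.02 (DESeq2 adjusted p = 0.0385); its limma log2 fold change was 3.57, and 2.05 without Terf1_flox replicate 2. The part of digestion in the heat shock values was not tested.

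The 6 genes most like the summed Hspa1a and Hspa1b over the 6 libraries, among the 9674 ranked genes, which had a mean of at least 50 and were not members, pseudogenes or genes with predicted or clone names, were Camsap3, Slc4a4, Fem1c, Rbm17, Man2c1 and Smarcc2, with Pearson correlations of the log2 values from 0.969 to 0.983 and Spearman correlations from 0.886 to 1. Of the ranked genes, 56 had a Pearson correlation of at least 0.9. No p is given, since the genes were picked for this likeness. Rbm17, for instance, had 178, 626 and 246 normalized counts in the controls and 666, 376 and 476 in the Terf1_flox libraries, with the same rank order as the summed copies.

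Fold changes over all genes varied with the GC content of the transcript: the median log2 fold change over genes was 0.37 in the lowest of 5 equal bins (25.6% to 43.5% GC) and −0.47 in the highest (55.3% to 78.3%). Among the heat shock genes, Hsp90aa1 (42.5%) and Dnaja1 (41.5%) were in the lowest bin, and Bag3, Hspa1a, Hspa1b and Hspb1 (56.1% to 60.7%) in the highest. Of those 4, Hspa1a, Hspa1b and Hspb1 had positive log2 fold changes and Bag3 a negative one. Hsp90ab1, at 51.0%, was in the third bin (median −0.11) and Hspa8, at 51.2%, at the low end of the fourth (median −0.33). After the correction Hsph1 was at −1.20, Hsp90ab1 at −1.01 and Hspb1 at 3.63. The other genes of the highest bin moved up: Hspa1a from 0.25 to 0.76, Hspa1b from 1.21 to 1.74 and Bag3 from −1.11 to −0.58.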

How the data were processed

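RNA of sorted kidney epithelial cells was sequenced in 6 libraries. The authors deposited normalized counts, a signal in reads divided by 1 size factor per library and not by gene length; DESeq2 and build GRCm39 are named per the submitters' processing notes, while the sources used here name no aligner, counter or filter. All values were whole multiples of 1 read (100%, within 0.01 read), so reads were recovered by division. Size factors recomputed from them matched the deposited ones.

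The main test was limma 3.58.1 (R 4.3.3) with a prior variance that follows the mean, applied to log2(normalized count + 1), for 14822 genes with a mean of at least 10, two-sided, with Benjamini-Hochberg adjustment over all of them; ± after a log2 fold change is its SE. edgeR 4.0.16 and DESeq2 1.42.0 were run on the recovered reads. Also tried were a pseudocount of 0.5 or 5, testing every gene or those averaging at least 50, other scalings, leaving out each library, a replicate block, summed Hspa1a and Hspa1b, and a correction of each library by smooth trends (mgcv 1.9.3) on transcript GC content and length, from 1 GENCODE M21 transcript a gene. That transcript also gave lengths per kilobase. The tests were tried on simulated reads.

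Always named were the 10 genes, their 2 copies summed, Terf1, Cdh16 and Epcam; from each network list up to 4 genes with the smallest p were eligible, and 6 genes by likeness. The members and lists were chosen with earlier results of these data known.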

Additional observations from a re-analysis of the deposited data

How the results depend on the processing

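The number of heat shock genes called was 0 of 10 as reported and under 16 of 18 alternatives; it was 1 among genes averaging at least 50 and 2 with DESeq2. Genes called over all genes numbered 0 as reported, 132 among genes averaging at least 50, 45 when totals were made equal, 8 with quantile normalization, 772 with DESeq2 and 0 in the other alternatives. The median log2 fold change of the 10 genes was 0.17, −0.0069 with equal totals, −0.12 after the GC content and length correction, and from −0.15 to 0.20 with 1 library left out; as the 10 genes go both ways, it has no firm sign. Terf1 (−3.99) passed in limma among genes averaging at least 50 (−3.99, adjusted p = 0.0285), on equal totals (−4.17, 0.0497) and in DESeq2 (−3.89, 5.42e-08). None of the following passed in limma. Signs changed for Hsp90aa1 with equal totals (−0.038) and after the GC content and length correction (−0.083), and after that correction for Dnaja1 (−0.15), Cdh16 (0.11), Hsbp1 (−0.15), Hsf1 (0.20) and Stub1 (0.094). With 1 library left out, Hspa1a ran from −0.028 (without control replicate 1) to 0.58, Dnajb1 from −0.46 (without control replicate 2) to 1.68, Dnaja1 from −0.045 (without Terf1_flox replicate 2) to 0.36 and the heat shock factor gene Hsf5 from −0.85 (without Terf1_flox replicate 2) to 2.23. The difference in the Hsp90ab1 to Hsp90aa1 ratio was −0.93 after the GC content and length correction, against −1.45. The causes were not tested. Equal totals moved the median of all genes from −0.08 to −0.24 and put Hsp90ab1 at −1.49. As this setting rescales each library by a single factor, it could hardly change the distance between them. At an unadjusted p below 0.05, 40.3% of genes were higher, beside 25.4% on equal totals and 50.9% on equal upper quartiles.

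Same-numbered libraries of the groups did not deviate together (correlations across genes −0.05, 0.00 and −0.01), so the numbers were not treated as pairs; with the replicate block limma called 0 genes and 0 heat shock genes, and the adjusted p of Hsp90ab1 was 0.245. Depth limits the genes with few reads in some libraries: Hspb1 (0 to 310 reads a library), Dnajb1 (31 to 750), Bag3 (40 to 402) and Hspa1b (61 to 283).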
